A study of Mus musculus with 6 samples.

Results

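The MHC class II presentation genes described here are the 10 genes that encode the class II chains H2-Aa, H2-Ab1 and H2-Eb1, the peptide editor subunits H2-DMa, H2-DMb1 and H2-DMb2, the subunits of its inhibitor, H2-Oa and H2-Ob, the invariant chain Cd74 and the transactivator Ciita. They were taken by symbol from the deposited gene count table, which holds 23420 genes, and all 10 were found and passed the filter of at least 10 counts over the 6 libraries. Stranded mRNA libraries had been made from splenic B cells of 3 Ahr+/+ and 3 Ahr-/- mice, both on the C57Bl/6J background. The Ahr-/- mice are of the strain B6.129-Ahr tm1Bra/J, with the deletion in all tissues, so their B cells had developed in mice without the aryl hydrocarbon receptor (AhR) in every other cell type. The mice were older than 8 weeks and, by the study's general methods, matched for age and gender. The B cells of both genotypes were cultured for 8 h with 10 µg/ml α-IgM, which engages the B-cell receptor, and 20 ng/ml IL-4 in medium with 5% foetal calf serum, and 250 nM of the AhR ligand FICZ was present for the last 4 h. No unstimulated cells and no cells without FICZ are analysed here, so the comparison is of the genotypes in activated, ligand-treated cells.

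MHC class II molecules present peptides from the endosomal pathway to CD4+ T cells, and B cells use them to obtain T-cell help. An α chain and a β chain pair in the endoplasmic reticulum with the invariant chain Cd74, which blocks the groove and is later cut down by cathepsins to the CLIP peptide. H2-DM removes CLIP and edits the peptides, H2-O restrains H2-DM in B cells, and Ciita, recruited by RFX, CREB and NF-Y proteins at the X and Y boxes, switches the class II promoters on. BCR engagement and IL-4 are both known to raise class II in B cells. The study reported no alteration of its activation markers, MHC II among them, in Ahr-/- B cells activated with α-IgM. Only mRNA is described here.

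Total counts ran from 22095096 to 53648787 per library, with the lowest in Ahr-/- replicate 1, and 3 counts, the floor used here, correspond to 0.0555 to 0.134 CPM (counts scaled to equal library totals). The libraries carried their labels: Cyp1a1, the AhR target, had between 4743 and 5404 counts in Ahr+/+ mice and between 4 and 7 in Ahr-/- mice. Ahr itself fell (log2 fold change -0.52 with a standard error, SE, of 0.047, adjusted p = 7.1e-06, edgeR), and which of its exons held the remaining reads was not measured. Over the 13682 genes tested with edgeR's quasi-likelihood test and Benjamini-Hochberg adjustment, 17.9% had an adjusted p under 0.05, 9.79% higher and 8.13% lower in Ahr-/- B cells, and the median log2 fold change was 0.00. The 10 B-cell markers summed to between 117064 and 125972 normalized counts in Ahr+/+ mice and between 137843 and 145800 in Ahr-/- mice, and every one of them was detected in every library. Normalized counts here are counts scaled by TMM library size to the mean of the 6 libraries, and fold changes are Ahr-/- over Ahr+/+.

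In GRCm38, 8 of the 10 genes lie in the class II region of chromosome 17, and the annotation (GENCODE M21) calls each of them protein coding. They are, in order, H2-Oa (chr17:34092340-34095234), H2-DMa (chr17:34119541-34139101), H2-DMb2 (chr17:34143307-34151555), H2-DMb1 (chr17:34153072-34160230), H2-Ob (chr17:34238903-34254414), H2-Ab1 (chr17:34257689-34269419), H2-Aa (chr17:34282744-34287823) and H2-Eb1 (chr17:34305867-34316674). H2-Aa is on the minus strand and the others on the plus strand. Ciita lies on chromosome 16 (chr16:10480059-10528418, plus strand) and Cd74 on another chromosome. Whether reads were counted by strand is not given in the sources used here, and 321 bases of the H2-Oa transcript and 111 of the Ciita transcript are also exons of a gene on the opposite strand, BC051537 and Dexi.

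Class II promoters are known for their X and Y boxes, and the stretch from 120 to 21 bases upstream of the RefSeq start is shown for 5 of them, the 2 genes called in the comparison below (H2-DMa and H2-Ob), both class II chain genes for which a promoter was at hand (H2-Aa and H2-Eb1), and H2-DMb2. Capitals mark AGCAAC, the core of the X box, and CCAAT or its reverse complement ATTGG, the core of the Y box that NF-Y binds. Sequences are from RefSeq, GRCm38.p6, written 5′ to 3′ along each gene's own strand. H2-Ob is chr17:34238785-34238884 on the plus strand, H2-Eb1 chr17:34305747-34305846 on the plus strand, H2-Aa chr17:34287844-34287943 on the minus strand, H2-DMb2 chr17:34145129-34145228 on the plus strand and H2-DMa chr17:34122712-34122811 on the plus strand.
H2-Ob: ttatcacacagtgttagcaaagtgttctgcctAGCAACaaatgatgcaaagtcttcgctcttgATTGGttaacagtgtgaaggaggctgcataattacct
H2-Eb1: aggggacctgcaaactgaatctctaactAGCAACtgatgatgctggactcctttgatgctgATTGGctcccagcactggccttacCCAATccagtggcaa
H2-Aa: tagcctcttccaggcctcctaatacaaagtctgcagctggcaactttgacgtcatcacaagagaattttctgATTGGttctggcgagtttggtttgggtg
H2-DMb2: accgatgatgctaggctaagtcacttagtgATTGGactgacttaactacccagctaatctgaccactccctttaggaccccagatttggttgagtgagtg
H2-DMa: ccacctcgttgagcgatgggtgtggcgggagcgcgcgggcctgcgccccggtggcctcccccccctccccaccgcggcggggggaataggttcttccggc

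Both letter strings and GCGTG, the core of the AhR response element, were searched on both strands in the 250 bases upstream of 8 RefSeq starts of 7 member genes. ATTGG was found in 6 of the genes at 43 bases upstream in H2-Oa, 48 in H2-Aa, 57 in H2-Ob, 59 in H2-Eb1, 61 in H2-DMb1 and 90 in H2-DMb2, and H2-Eb1 also had CCAAT at 35. H2-DMa had neither string before the start shown and ATTGG at 198 bases before a second start. The start shown, base 34122832, lies close to the 5′ end of Brd2, a gene on the minus strand (base 34122634). The second is at base 34125518. Both lie inside the annotated span of H2-DMa, and no other start of this gene was searched. AGCAAC stood before ATTGG in H2-Oa (77 bases upstream), H2-Ob (88) and H2-Eb1 (92), so both were in 3 of the 8 promoters. Only exact strings were counted. Near matches were left out, such as ggcaac in the H2-Aa stretch shown, which differs from AGCAAC in its first base. GCGTG was in none of the 8. Among 32851 RefSeq mouse promoters of the same length, 33.8% held CCAAT on either strand, 12.2% AGCAAC, 4.31% both and 28.2% GCGTG. These are matches of letters in a window and no binding was measured.

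At the level of each gene, measured as TMM-normalized CPM per kilobase of the transcript with the longest coding part, the order of the 10 genes was the same in both genotypes. Cd74 was highest at 4368 ± 145 in Ahr+/+ and 4690.3 ± 359.9 in Ahr-/- cells (these and the next errors are SD over 3 mice). H2-Aa followed at 3008 ± 68.2 and 3145 ± 176, then H2-Ab1 at 1687 ± 20.1 and 1827 ± 182, and H2-Eb1 at 1299 ± 8.53 and 1395 ± 126. The next gene, H2-DMb2, was 7.54-fold below H2-Eb1 in Ahr+/+ B cells, at 172 ± 4.87 and 171 ± 19.8. Below it came H2-DMa (131 ± 3.63 and 154 ± 9.90), H2-Ob (108 ± 5.24 and 127 ± 13.3), H2-DMb1 (89.4 ± 1.84 and 95.3 ± 6.69) and Ciita (71.6 ± 4.27 and 69.4 ± 10.8). H2-Oa was lowest at 30.2 ± 0.62 and 33.3 ± 2.51, and its partner chain H2-Ob was above it in every library. Each gene was above the next in this order in 6 of 6 libraries, but over all libraries the ranges of H2-DMb2 and H2-DMa overlapped, and so did those of H2-DMa and H2-Ob. The order depends on the length used. With all annotated exons of a gene merged, an alternative added after the data were seen, H2-Eb1 stood above H2-Aa, H2-DMb1 above H2-DMa, and Ciita was below H2-Ob in 5 of 6 libraries with overlapping ranges, while Cd74 stayed first and H2-Oa last. The plot of level per transcript length shows these values for each library.

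**Figure D1:**
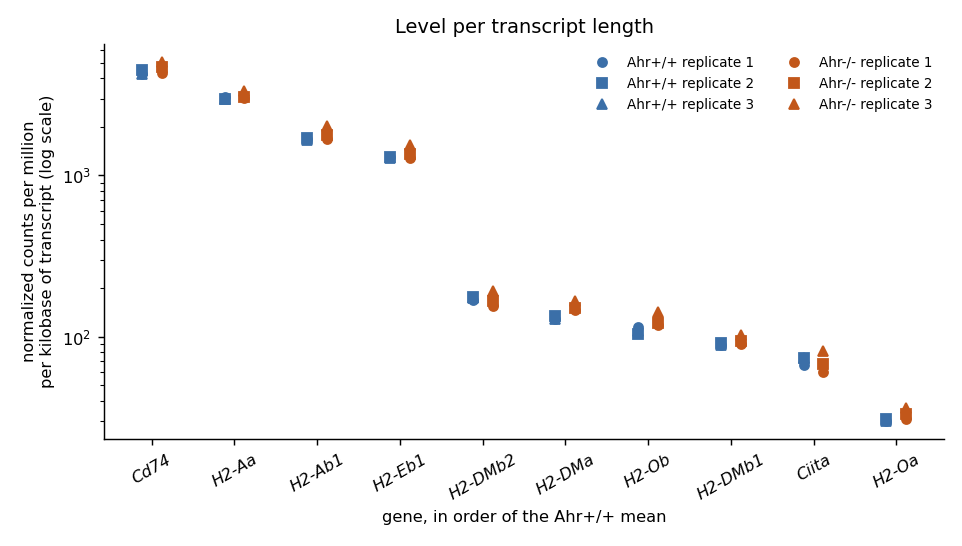
TMM-normalized CPM per kilobase of the longest coding transcript (log scale) for the 10 genes in each of the 3 Ahr+/+ (blue) and 3 Ahr-/- (orange) libraries, in order of the Ahr+/+ mean. Cd74, H2-Aa, H2-Ab1 and H2-Eb1 lie at 1288 or above in every library and the other 6 genes at 193 or below.

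For the comparison of the genotypes, 2 of the 10 genes passed the adjusted p of 0.05, H2-DMa and H2-Ob, both higher in Ahr-/- B cells, where 17.9% of all tested genes passed. A share of 2 in 10 is near that background and is no result about the set. Of the members, 8 had a positive log2 fold change, against 6930 of the 13682 tested genes, and their median was 0.10 with a range of -0.04 to 0.24. In these bulk libraries a change in the number of cells of a type and a change in RNA per cell cannot be told apart.

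H2-DMa, the α chain of the editor H2-DM, had 8211, 8593 and 8176 normalized counts in Ahr+/+ mice and 9352, 9577 and 10540.3 in Ahr-/- mice. All Ahr-/- values were above all Ahr+/+ values, as was the case in either direction for 33.5% of the tested genes. The difference was 18.0% (95% interval 9.99 to 26.7%), a log2 fold change of 0.24 (SE 0.047, adjusted p = 0.0032, edgeR), and its adjusted p stayed under 0.05 without each library in turn, with values from 0.18 to 0.27.

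H2-Ob, the β chain of the inhibitor H2-O, had 7222, 6558 and 6853 normalized counts in Ahr+/+ mice and 7476, 7712 and 9046 in Ahr-/- mice. The groups did not overlap, but the gap between the highest Ahr+/+ and the lowest Ahr-/- library was smaller than the SD of either genotype, 332 and 846 normalized counts. H2-Ob was 17.6% higher (95% interval 6.73 to 29.5%), with a log2 fold change of 0.23 (SE 0.064, adjusted p = 0.024, edgeR). This call did not hold without Ahr+/+ replicate 2 (0.20, adjusted p = 0.097) or Ahr+/+ replicate 3 (0.23, adjusted p = 0.081), and the value moved to 0.14 without Ahr-/- replicate 3 (adjusted p = 0.040).

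The partner chains of these genes did not pass the test. H2-Oa, the α chain of H2-O, had 1253, 1294 and 1245 normalized counts in Ahr+/+ mice and 1292, 1387 and 1502 in Ahr-/- mice. The lowest Ahr-/- library lay between Ahr+/+ libraries, and the log2 fold change was 0.15 (SE 0.055, adjusted p = 0.091, edgeR). H2-DMb1, a β chain of H2-DM, had 4749, 4936 and 4785 normalized counts in Ahr+/+ mice and 4833, 5057 and 5540.02 in Ahr-/- mice, with a log2 fold change of 0.09 (SE 0.049, adjusted p = 0.23, edgeR). Its other β chain, H2-DMb2, had 9162, 9695 and 9442 in Ahr+/+ mice and 8415, 9129 and 10542 in Ahr-/- mice, with a log2 fold change of -0.01 (SE 0.065, adjusted p = 0.95, edgeR). For H2-DMb2 the Ahr-/- libraries held both the lowest and the highest of the 6 values, and the interval ran from 9.93% lower to 9.65% higher.

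The β chain genes of H2-DM are near copies, so a read from a shared stretch fits both. How such reads were counted was not examined. Reads left out would lower the counts and the levels per kilobase of both genes, also in their sum. Their coding parts are 783 bases each, of which 751 (95.9%) are identical, and 353 of the 734 stretches of 50 bases in H2-DMb1 also occur in H2-DMb2. The 30 bases where they differ most, coding bases 205 to 234 of the GENCODE M21 transcripts counted from the start codon, are shown with the 10 differing bases in capitals, since such stretches are where a read can be assigned to a single gene.
H2-DMb1: ctgtAtCCatGggcCgaaaATTtttcaaGG
H2-DMb2: ctgtCtAGatTggcTgaaaTAAtttcaaAT
Summed before the fit, the pair had a log2 fold change of 0.03 (adjusted p = 0.81, edgeR). H2-Eb1 and H2-Eb2 share 81.1% of aligned coding bases and no stretch of 50 bases.

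The chains that form the classical molecules and the invariant chain carried most of the counts, and did not pass the test. H2-Aa, the α chain of I-A, had 133844, 128836 and 128608 normalized counts in Ahr+/+ mice and 130362, 133762 and 144934 in Ahr-/- mice. H2-Ab1, its β chain, had 78875, 79324 and 77524 in Ahr+/+ mice and 78266, 82489 and 94592 in Ahr-/- mice. In both genes the groups overlapped, since Ahr-/- replicate 1 lay within or below the Ahr+/+ values while Ahr-/- replicate 3 was above them all. The differences were 4.55% (95% interval -1.65 to 11.1%, adjusted p = 0.33, edgeR) for H2-Aa and 8.34% (-0.39 to 17.8%, adjusted p = 0.19) for H2-Ab1.

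H2-Eb1, the β chain of I-E, had 83795, 83513 and 82738 normalized counts in Ahr+/+ mice and 82660, 87395 and 98422 in Ahr-/- mice, a difference of 7.38% (95% interval -0.70 to 16.1%, adjusted p = 0.21, edgeR). Its partner is not made in mice of the b haplotype such as C57Bl/6, and the row H2-Ea-ps, annotated as a polymorphic pseudogene (H2-Ea is its older name), held at most 2 counts in any library. The mRNA of an I-E α chain was thus under the floor of 3 counts in both genotypes. H2-Eb2, a further β chain gene next to it, was at 5095, 4742 and 4870 normalized counts in Ahr+/+ mice and 4802, 5119 and 5984 in Ahr-/- mice (log2 fold change 0.12, SE 0.067, adjusted p = 0.28, edgeR).

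Cd74 had 232310, 245830.3 and 232083 normalized counts in Ahr+/+ mice and 235152, 253319 and 274129 in Ahr-/- mice. The groups overlapped, and the difference was 7.38% (95% interval -0.26 to 15.6%, adjusted p = 0.19, edgeR). Ciita, the transactivator of class II genes, had 10851, 12043 and 12069 normalized counts in Ahr+/+ mice and 9750, 10960.2 and 13206 in Ahr-/- mice. It had the widest spread of the 10 genes, with a coefficient of variation of 5.97% in Ahr+/+ and 15.5% in Ahr-/- libraries, and its log2 fold change was -0.04 (SE 0.085, adjusted p = 0.80, edgeR), with an interval from 14.6% lower to 10.5% higher.

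Ahr-/- replicate 3 was the highest of the 6 libraries for 10 of 10 genes, while it was the highest for 16.4% of all tested genes. This library was also the highest for 7 of 10 B-cell markers and the lowest for 6 of 10 macrophage and monocyte markers, and the part of these in the members' levels was not tested. For the members, Ahr-/- replicate 3 was above the mean of the other Ahr-/- libraries by a median of 0.19 on the log2 scale, from 0.13 to 0.35. Over all tested genes the median was 0.00 and the central 95% ran from -1.11 to 0.72. That range takes in genes down to the filter of 10 counts over the 6 libraries. The members' lowest count in a library was 753, and genes of like depth were not compared. The pattern of Ahr-/- replicate 3 was noticed in the values and is given as a description. Ahr-/- replicate 2 was above every Ahr+/+ library for 7 of the genes, against 33.7% of all tested genes, and Ahr-/- replicate 1 for 2, H2-DMa and H2-Ob, against 35.2%. The coefficient of variation was larger in Ahr-/- than in Ahr+/+ for 10 of 10 genes, and for 50.1% of all tested genes.

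**Figure D2:**
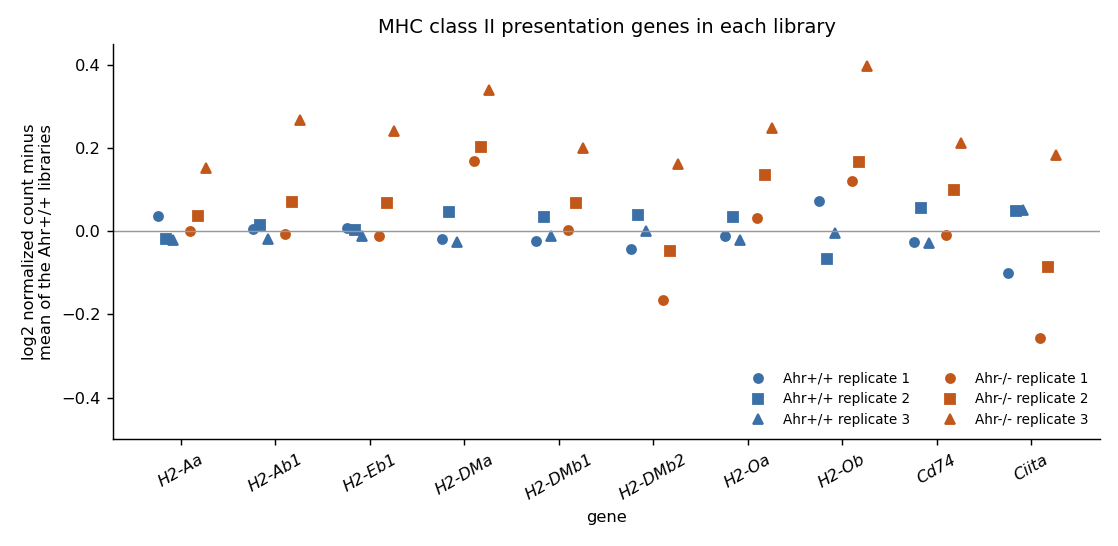
Log2 normalized count of each of the 10 genes in each library minus the mean of the 3 Ahr+/+ libraries, with Ahr+/+ in blue, Ahr-/- in orange and the replicate as the symbol. Ahr-/- replicate 3 (orange triangles) is the highest library for every gene, from 0.15 for H2-Aa to 0.40 for H2-Ob, and the Ahr+/+ libraries stay between -0.10 and 0.07.

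The size of the difference moved with the Ahr-/- libraries. Without Ahr-/- replicate 3, each of the 10 log2 fold changes was the lowest of the 6 fits that leave out a library, and the values fell to 0.02 for H2-Aa, 0.03 for H2-Ab1 and H2-Eb1, 0.04 for Cd74, -0.10 for H2-DMb2 and -0.17 for Ciita (adjusted p = 0.055, edgeR). Without Ahr-/- replicate 1, each was the highest of those fits, and H2-Ab1 (0.17, adjusted p = 0.034), H2-Eb1 (0.16, adjusted p = 0.036), H2-Oa (0.19, adjusted p = 0.028) and Cd74 (0.16, adjusted p = 0.022) passed too, so that 6 of 10 were called, all higher, where 15.5% of all tested genes were called in that fit and 8.42% were higher. Ciita and H2-DMb2 turned positive there, at 0.05 and 0.06, without passing. H2-DMa alone was called in every fit tried.

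**Figure D3:**
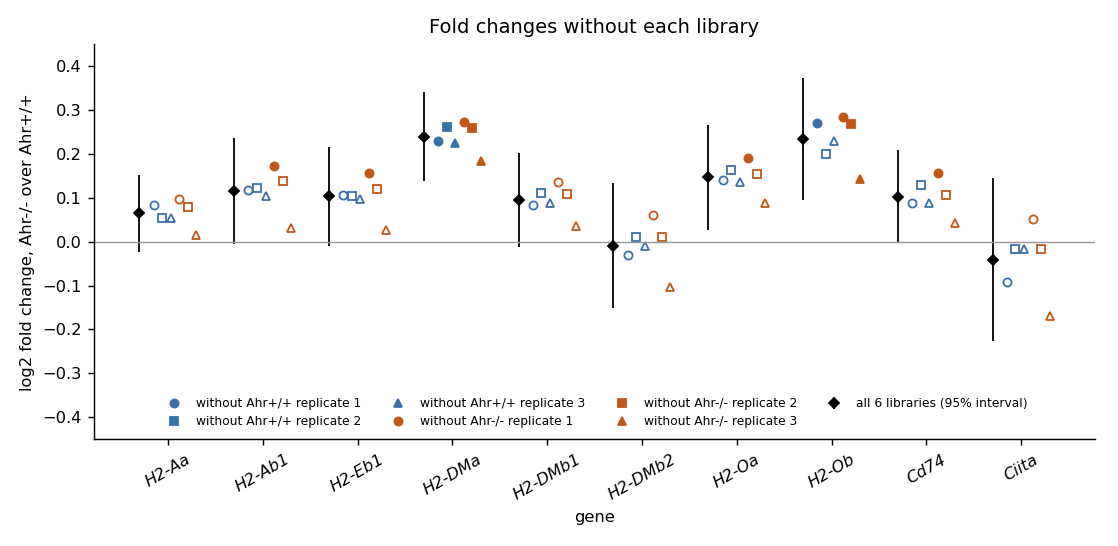
Log2 fold change (Ahr-/- over Ahr+/+) of each gene with all 6 libraries (black diamonds, bars are 95% intervals) and without each library in turn (blue, an Ahr+/+ library left out; orange, an Ahr-/- library left out), with filled symbols for an adjusted p under 0.05 and open symbols otherwise. The lowest value of each gene is the fit without Ahr-/- replicate 3, and H2-DMa stays between 0.18 and 0.27.

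Together the 10 genes took 1.47, 1.50 and 1.46% of all counts in Ahr+/+ mice and 1.50, 1.58 and 1.73% in Ahr-/- mice. The means were 1.47 ± 0.021% and 1.60 ± 0.12% (SD, n = 3 mice per genotype), and the groups overlapped (two-sided exact permutation test, p = 0.2, where 3 mice against 3 allow 0.1 at the smallest). Cd74, H2-Aa, H2-Ab1 and H2-Eb1 made up 92.6% of these counts in either genotype. Their own share of all counts was 1.36, 1.39 and 1.35% in Ahr+/+ mice and 1.39, 1.46 and 1.60% in Ahr-/- mice, and these groups did not overlap (exact permutation test, p = 0.1, the smallest possible), with 1.386 the highest Ahr+/+ and 1.388 the lowest Ahr-/- value. Set against the summed counts of 10 B-cell markers instead, the direction turned. The members had 4.53, 4.81 and 4.81 counts per B-cell marker count in Ahr+/+ mice and 4.06, 4.36 and 4.54 in Ahr-/- mice, means of 4.72 ± 0.17 and 4.32 ± 0.24 (exact permutation test, p = 0.2). Of these B-cell markers 6 of 10 rose and 2 fell, against 9.79% and 8.13% of all tested genes. The largest rises were those of Cd79b, a chain of the B-cell receptor complex (log2 fold change 0.35, adjusted p = 5.9e-05, edgeR), the IgE receptor Fcer2a (0.31, adjusted p = 0.0076) and the tetraspanin Cd37 (0.28, adjusted p = 0.0011). Those that fell were the transcription factor Ebf1 (-0.24, adjusted p = 0.022) and the adaptor Blnk (-0.19, adjusted p = 0.012).

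**Figure D4:**
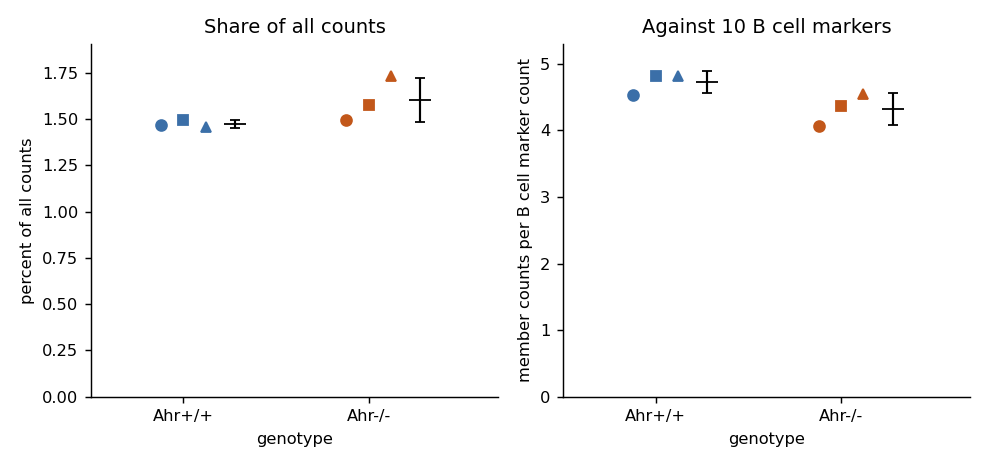
Left, percent of all counts on the 10 genes in each library. Right, counts on the 10 genes per count on 10 B-cell markers. Points are libraries (symbols as replicates 1 to 3, blue Ahr+/+, orange Ahr-/-) and bars are mean ± SD (n = 3 mice). The Ahr-/- mean is the higher on the left, 1.60 against 1.47%, and the lower on the right, 4.32 against 4.72.

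Ratios of counts between members within a library are free of library scaling, and 8 of them were compared. The ratio of H2-Oa to H2-DMa was 0.153, 0.151 and 0.152 in Ahr+/+ mice and 0.138, 0.145 and 0.142 in Ahr-/- mice, and that of H2-DMb2 to H2-DMb1 was 1.93, 1.96 and 1.97 against 1.74, 1.81 and 1.90. In both the Ahr-/- values were all below the Ahr+/+ values, a log2 difference of -0.10 and -0.11 (exact permutation test, p = 0.1, adjusted p = 0.4 over the 8 ratios, the smallest p being 0.1). H2-Ob to H2-DMa, the inhibitor and editor chains that were both called, had a ratio of 0.827 ± 0.059 and 0.821 ± 0.032 (SD, n = 3 mice, exact permutation p = 1.0). H2-Aa to H2-Ab1, the chains of I-A, was at 1.66 ± 0.036 and 1.61 ± 0.068 (exact permutation p = 0.4, adjusted p = 0.53). Ciita to H2-Ab1 was at 0.148 ± 0.0095 and 0.132 ± 0.0075 (exact permutation p = 0.2, adjusted p = 0.4). The remaining ratios, H2-Ob to H2-Oa, H2-Eb1 to H2-Ab1 and Cd74 to H2-Ab1, had log2 differences of 0.09, -0.01 and -0.01, with overlapping groups.

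Of 13 genes of the class II transcription machinery, 1 rose and 3 fell, against 9.79% and 8.13% of all tested genes, and the median log2 fold change was -0.08. Rfxank, a subunit of the RFX complex that binds the X box, had 776, 761 and 699 normalized counts in Ahr+/+ mice and 661, 606 and 671 in Ahr-/- mice and fell (log2 fold change -0.21, SE 0.065, adjusted p = 0.039, edgeR), a call that was lost in 7 of 14 alternatives, among them without Ahr+/+ replicate 1 (-0.18, adjusted p = 0.13), Ahr+/+ replicate 2 (-0.20, adjusted p = 0.10), Ahr-/- replicate 1 (-0.23, adjusted p = 0.054) and Ahr-/- replicate 2 (-0.16, adjusted p = 0.20). The other RFX subunits, Rfx5 (0.06, adjusted p = 0.27) and Rfxap (0.11, adjusted p = 0.30), did not pass. Of the NF-Y subunits at the Y box, Nfyb fell from 2400.06, 2328 and 2266 normalized counts in the Ahr+/+ to 1888, 1899 and 2056 in Ahr-/- mice (-0.26, SE 0.044, adjusted p = 0.0013), while Nfya (-0.09, adjusted p = 0.097) and Nfyc (-0.05, adjusted p = 0.39) did not pass.

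The other changed genes of this list act on B-cell fate. Pax5, which holds B-cell identity, had 1292, 1437 and 1333 normalized counts in Ahr+/+ mice and 2030.4, 2031 and 2291 in Ahr-/- mice and rose by 0.65 on the log2 scale (SE 0.058, adjusted p = 5.8e-06, edgeR). Prdm1, which encodes Blimp-1, a repressor of Ciita in plasma cells, was low at 180, 235 and 229 in Ahr+/+ mice and 146, 149 and 119 in Ahr-/- mice and fell by 0.64 (SE 0.14, adjusted p = 0.0058). The coactivators Crebbp, Ep300 and Kat2b, and Creb1 and Spi1, had log2 fold changes between -0.13 and -0.02 and did not pass, but without Ahr-/- replicate 3 Crebbp (-0.20, adjusted p = 0.013) and Ep300 (-0.13, adjusted p = 0.040) did.

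Of 13 tested genes of class II processing and turnover, 10 rose and 0 fell, against 9.79% and 8.13% of all tested genes, and the median log2 fold change was 0.25. Whether these genes differed from the members was not tested. The count of 0 that fell came from edgeR and was also 0 at an unadjusted p under 0.05, with DESeq2 and with limma-voom. Without Ahr+/+ replicate 3, 6 of the 13 rose. Ctss, the cathepsin that makes the late cuts of the invariant chain in B cells, had 5984, 6370 and 6239 normalized counts in Ahr+/+ mice and 7977, 7830.2 and 7037 in Ahr-/- mice (log2 fold change 0.30, SE 0.049, adjusted p = 0.0010). Cst3, an inhibitor of cathepsins, rose too, from 1234, 1293 and 1265 to 1819, 1731 and 1442 (0.39, SE 0.072, adjusted p = 0.0021). In both genes all Ahr-/- values were above all Ahr+/+ values. Of the 13 genes, 6 were highest in Ahr-/- replicate 1, 3 in Ahr-/- replicate 2, 3 in Ahr-/- replicate 3 and 1 in Ahr+/+ replicate 1.

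The remaining lysosomal proteases of the list that rose were Ctsl (0.49), Ctsb (0.31), Ctsc (0.25), Ctsd (0.14) and Ctsh (0.14), with adjusted p between 3.1e-04 and 0.036 (edgeR). Lgmn, the asparaginyl endopeptidase, rose by 0.21 (adjusted p = 0.023) and Ifi30, the lysosomal thiol reductase, by 0.21 (adjusted p = 0.020). Leaving out a library ended some of these calls. Without Ahr+/+ replicate 3 this held for Ctsd (0.13, adjusted p = 0.082), Ctsh (0.14, adjusted p = 0.097), Lgmn (0.20, adjusted p = 0.098) and Ifi30 (0.18, adjusted p = 0.11). Without Ahr+/+ replicate 1 it held for Ctsd, Ctsh and Lgmn, with adjusted p from 0.061 to 0.10, and without Ahr-/- replicate 2 for Ctsd (adjusted p = 0.082) and Ifi30 (adjusted p = 0.093). Without Ahr-/- replicate 3 it held for Ctsh (adjusted p = 0.060) and Lgmn (adjusted p = 0.074), and for Ctsh also without Ahr+/+ replicate 2 (adjusted p = 0.060) or Ahr-/- replicate 1 (adjusted p = 0.12). Cd83, which protects surface class II from March1, had 57531, 52065 and 53234 normalized counts in Ahr+/+ mice and 67799, 64661 and 69147 in Ahr-/- mice (0.31, SE 0.042, adjusted p = 2.2e-04). Sppl2a, the protease that clears the membrane stub of the invariant chain, was at -0.01 (adjusted p = 0.93), Ctsz at 0.12 (adjusted p = 0.067, with 5 of 14 alternatives passing and a range of 0.014 to 0.28) and March8 at 0.32 (adjusted p = 0.20). March1 has no value here, since the table writes it as a date that 2 rows share.

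**Figure D5:**
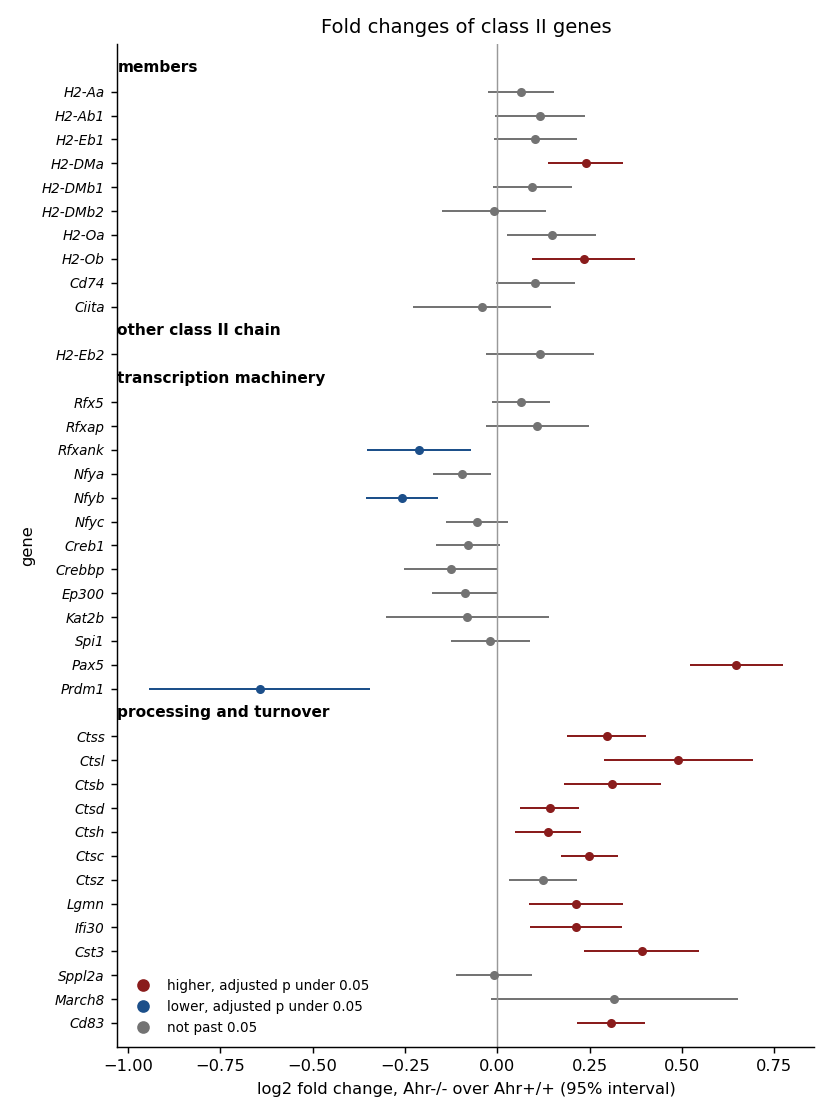
Log2 fold change (Ahr-/- over Ahr+/+, points) with 95% intervals (bars) for the 10 member genes, H2-Eb2, 13 genes of the transcription machinery and 13 of processing and turnover, red and blue for an adjusted p under 0.05 and grey otherwise. Of the members 2 are red, while 10 of the processing genes are.

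Dendritic cells also make class II, cathepsins and Cst3, and their markers moved with genotype. Of 10 conventional dendritic cell markers, 6 rose and 1 fell, against 9.79% and 8.13% of all tested genes. Their summed level was 8728 to 9439 normalized counts in Ahr+/+ mice and 10627 to 11951 in Ahr-/- mice. Most of it was from Ccr7 (7793 to 10996), which B cells also express. Without Ccr7 the sums overlapped, at 835 to 958 against 954 to 1147. These sums still held Zbtb46, which fell, at 536 to 580 normalized counts in Ahr+/+ and 392 to 437 in Ahr-/- mice. The other markers were not summed without it. Among those that rose were Cd209a (log2 fold change 2.52, adjusted p = 1.2e-04, edgeR), Itgae (1.96, adjusted p = 2.5e-05) and Clec9a (1.86, adjusted p = 0.0043). Their raw counts were low, at 5 to 8 for Cd209a, 16 to 22 for Itgae and 5 to 6 for Clec9a in Ahr+/+ libraries. In Ahr-/- libraries these counts were 16 to 63, 42 to 105 and 10 to 40. Flt3 (-0.20), Xcr1 (-0.26) and Batf3 (0.75) did not pass. Of 10 plasmacytoid dendritic cell markers 8 rose and 0 fell, against the same shares of all tested genes. Their sum was 4034 to 4648 in Ahr+/+ mice and 5234 to 6282 in Ahr-/- mice. Most of that sum was Bst2 (1930 to 2998, adjusted p = 0.23) and Pacsin1 (1172 to 1740), and the other 8 markers summed to 931 to 965 against 1415 to 1627. The largest changes were those of Siglech (2.23), Klk1 (2.19) and Runx2 (1.47). None of these 20 markers was at 0 in any library, and Zbtb46 fell (-0.40, adjusted p = 0.0014). Their part in the levels of H2-DMa, H2-Ob and the processing genes was not tested.

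Markers of other cells that the isolation could leave were also counted. Over all tested genes 9.79% rose and 8.13% fell, and the macrophage and monocyte counts below are near those shares. No list was tested as a set. Of 10 macrophage and monocyte markers 1 rose, Ccr2 (0.91, adjusted p = 0.034, edgeR), and 1 fell, Adgre1, which encodes F4/80 (-3.60, adjusted p = 2.9e-09), with a sum of 1233 to 1538 in Ahr+/+ mice and 662 to 1195 in Ahr-/- mice and Fcgr1 at 0 in 1 library. Without Adgre1 the other 9 summed to 579, 876 and 766 in Ahr+/+ mice and 867, 1132 and 626 in Ahr-/- mice, so that the groups overlapped, and the median log2 fold change of the 10 was 0.43, with 6 of 10 above 0. The call of Ccr2 was lost in a robust fit (adjusted p = 0.055) and without Ahr+/+ replicate 1 (0.66, adjusted p = 0.11), Ahr+/+ replicate 2 (1.01, adjusted p = 0.063), Ahr-/- replicate 1 (0.85, adjusted p = 0.076) or Ahr-/- replicate 2 (0.67, adjusted p = 0.19). Of 10 T-cell markers Cd3e (-1.26) and Cd28 (-0.86) fell, with a sum of 6843 to 7233 against 6810.2 to 7719 that was mostly Lck (5830 to 6737). Without Lck the other 9 summed to 1061, 1125 and 1013 in Ahr+/+ mice and 973, 1019 and 982 in Ahr-/- mice, and the groups overlapped. Of 9 NK cell and neutrophil markers Ncr1 (0.98, adjusted p = 0.049, edgeR) and Klrb1c (0.92, adjusted p = 0.028) rose, with a sum of 315 to 577 against 377 to 827 and Retnlg at 0 in 2 libraries. Both calls were lost without Ahr+/+ replicate 1, Ahr+/+ replicate 3, Ahr-/- replicate 1 or Ahr-/- replicate 2, with adjusted p from 0.061 to 0.33. That of Ncr1 was also lost without Ahr+/+ replicate 2 (adjusted p = 0.11) and with DESeq2 (adjusted p = 0.17) and limma-voom (adjusted p = 0.078). Of 6 plasma cell markers Jchain fell (-0.92, adjusted p = 0.0021, and 0.12 in a robust fit) and Irf4 (0.28) and Xbp1 (0.25), which activated B cells also express, rose, with a sum of 34188 to 38302 against 37215 to 37782. Tnfrsf17 was at 0 in 1 library. The part of these cells in the members' levels was not tested.

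The class II region also holds genes that are not members. In the span from H2-Oa to the end of H2-Ea-ps (chr17:34092340-34344645, GRCm38), 16 of 23 annotated genes are in the count table. Of the 7 tested non-members 0 were called by edgeR, DESeq2 or limma-voom, where edgeR called 17.9% of all tested genes. With 7 genes a count of 0 is near that share. Among them 1, Psmb8, was at an unadjusted p under 0.05 (edgeR). The non-members include Brd2, between H2-Oa and H2-DMa (log2 fold change -0.05, adjusted p = 0.50, edgeR), and the class I genes Psmb9, Tap1, Psmb8 and Tap2 between H2-DMb1 and H2-Ob, from -0.002 to 0.11. H2-DMa and H2-Ob, the genes called, are not neighbours, and both lie beside genes that did not pass. Of 14 genes of class I presentation as a whole, 1 rose and 0 fell, against 9.79% and 8.13% of all tested genes. A share of 1 in 14 is near that background. The gene that rose was the peptide-loading factor Tapbp (0.24, adjusted p = 0.017, edgeR). This call was lost without Ahr+/+ replicate 1 (0.17, adjusted p = 0.059), Ahr+/+ replicate 3 (0.23, adjusted p = 0.073) or Ahr-/- replicate 1 (0.21, adjusted p = 0.053). B2m (0.18, adjusted p = 0.12) and the class I transactivator Nlrc5 (0.20, adjusted p = 0.28) did not pass.

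Lastly, 9682 non-member genes whose mean was 100 normalized counts or more were ranked by the root mean square distance of their centred log2 values over the 6 libraries from the mean profile of the members. The nearest were Chd3 (0.0115), 9130221H12Rik (0.0174), Card6 (0.0190), Zfp688 (0.0219) and Nek3 (0.0234), where the median gene was at 0.12. The members themselves were at a median of 0.034, from H2-Eb1 (0.0099) and H2-Ab1 (0.0130) to H2-Ob (0.0825) and Ciita (0.104). The 5 nearest genes had log2 fold changes of 0.08 to 0.12 and adjusted p from 0.16 to 0.57 (edgeR).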

How the data were processed

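Total mRNA of splenic B cells isolated from 3 Ahr+/+ and 3 Ahr-/- mice was measured after culture, 1 stranded library per mouse. The counts deposited by the authors are whole reads per gene and were not normalized. Their submitters' processing notes name TopHat2 (version 2), HTSeq, DESeq and the build mm10, and the strand setting of the counting is not given in the sources used here. Normalized counts and a table of the authors' own comparison (fold changes and p-values) were not used here. No column belonged to another series.

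The counts of 13682 genes with at least 10 counts over 6 libraries were fitted with edgeR 4.0.16 (R 4.3.3, TMM, quasi-likelihood test, two-sided, genotype as the only term), after the script was tested on simulated data. P-values were adjusted over all tested genes by the Benjamini-Hochberg method with a threshold of 0.05, and intervals are at 95%. The common biological coefficient of variation was 0.0476. Single values were compared by exact permutation tests (scipy 1.17.1). Positions and lengths are from GENCODE M21 (GRCm38), promoters from RefSeq (GRCm38.p6); of 10 members, 7 had promoters that could be used. Alternatives were DESeq2 1.42.0, limma-voom 3.58.1, other scalings and filters, a robust fit, a replicate block and each library left out. Replicates of a genotype differed by more than sampling noise (chi-square per degree of freedom 3.80 to 8.80). The members and gene lists were chosen with earlier results of these data known. The genes named are all members, every changed gene of the transcription, processing and other chain lists with 8 fixed genes of these, up to 3 changed genes with the largest change in each other list, and the 5 nearest in profile. Any further gene named was chosen after its values were seen.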

Additional observations from a re-analysis of the deposited data

How the results depend on the processing

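Depth was not limiting for the members, whose lowest count was far above the floor of 3 counts, and 3 mice per genotype set the precision. Over all tested genes, 1473 were changed at an adjusted p under 0.01 in place of 2453 at 0.05, 783 higher and 690 lower, and leaving out each library gave 1664 to 2601 (908 to 1384 higher, 756 to 1217 lower). Of the members, 1 was changed at 0.01 and 1 in a robust quasi-likelihood fit (H2-Ob then at adjusted p = 0.051), and 1 to 6 without each library. Library size alone as scaling, which moved the median of all genes to 0.03, called 1621 genes higher and 919 lower in place of 1340 and 1113, and also H2-Oa (adjusted p = 0.044). Ctsz passed with library size alone (adjusted p = 0.027), no filter (0.047), DESeq2 (0.039), a robust fit (0.048) and without Ahr+/+ replicate 2 (0.014). At 0.01, 6 processing genes, 0 class I genes, 5 B-cell markers, 1 macrophage marker and 0 NK cell and neutrophil markers were changed. Without each library these counts ran from 6 to 10, 0 to 4, 6 to 8, 1 to 5 and 0 to 5. With no filter on low counts, 2 class I genes were changed. The robust fit called 1 macrophage marker, and DESeq2 size factors, the DESeq2 test and the replicate block each called 1 NK cell and neutrophil marker. With B-cell marker counts as denominator, the log2 ratio of the members' share turned from 0.12 to -0.13, and the cause was not tested. The difference in their share of all counts was 0.062 to 0.18 percentage points without each library.

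The replicate numbers were treated as names: libraries with the same number had correlations of -0.15, 0.26 and -0.19 between their deviations from the genotype means. Pairs with different numbers ran from -0.35 (Ahr+/+ replicate 1 with Ahr-/- replicate 2) to 0.37 (Ahr+/+ replicate 1 with Ahr-/- replicate 3). With the number as a replicate block, 2303 genes were changed, 1239 higher and 1064 lower, and 2 members, H2-DMa (log2 fold change 0.24) and H2-Ob (0.23). The calls of Rfxank (adjusted p = 0.067), Ctsh (adjusted p = 0.051) and Ncr1 (adjusted p = 0.072) were lost and Crebbp passed (adjusted p = 0.046).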
